A study of Arabidopsis thaliana with 6 samples.

Results

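The beta-glucosidases of the BGLU family were followed in 2 organs of Arabidopsis thaliana, roots and rosette leaves, grown with and without lead. Members were the probe sets that name exactly 1 gene, whose symbol in the platform's annotation is BGLU and a number, and whose signal reached 25 on at least 1 of the 6 arrays. Of 9 BGLU probe sets, 5 met this limit: BGLU15, BGLU21, BGLU25, BGLU33 and BGLU46, each with 1 probe set. The other 4, BGLU28, BGLU29, BGLU45 and BGLU47, did not. They come from 3784 probe sets that name 1 gene, which cover 3592 genes. The RefSeq gene table of assembly TAIR10.1 holds 47 genes with a BGLU number as symbol or synonym, and 9 of them had a named probe set, so the other family members were not analysed here.

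Plants of the accession Col-4 stood in hydroponic culture and were harvested at growth stage 6. The control group, per its labels, has no lead treatment, and the other groups had 25 or 50 ppm lead, supplied as lead nitrate in 2 additions. Roots and rosette leaves of each treatment were each measured on 1 Affymetrix array, which gives 6 groups of 1 array. No value below therefore has a replicate, and neither the number of plants behind an RNA sample nor whether roots and leaves came from the same plants is given in the labels. The purpose of the series is to profile genes of lead uptake, tolerance and defence.

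Beta-glucosidases of this family remove glucose from small molecules that plants store as glucosides, such as coumarins, monolignols, flavonols, glucosinolates and hormone conjugates. Keeping the glucoside and the enzyme in different cells or compartments until they meet is a common arrangement, and in Arabidopsis roots several of these enzymes are packed in bodies derived from the endoplasmic reticulum (ER bodies). The genes often lie in tandem runs of close copies.

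Signals are linear values on the authors' scale. A floor of 8, the 30th percentile over the 6 arrays, was set before taking log2, so values under it have no order and a fold against them is a lower bound. Median signals of the arrays ran from 22.3 to 29.3. The 50 ppm root array had an average background of 192.65, against 69.03 to 97.8 on the other 5 arrays. The organ labels were set against marker genes. Of 10 listed root markers 3 had a named probe set, all of them peroxidases. As these were picked with earlier results known, they are no independent check of the root labels. All 8 probe sets of the 4 named leaf markers, such as RCA and PSBW, were between 258.2 and 6483.3 in leaves and no higher than 87.6 in roots, and the 3 root peroxidases, picked with earlier results known, were at least 1436.8 in roots and no higher than 8.4 in leaves.

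BGLU21, BGLU15 and BGLU46 lay above the floor in roots and under it in leaves. BGLU33 lay above the floor in leaves and under it in roots, and BGLU25 was well above it in both organs. Between roots and leaves 3 of the 5 members passed as higher in roots, where 31% of all tested probe sets did, and 1 as higher in leaves, where 21.6% did; these 4 reached the signal limit in 1 organ alone and so had to differ. No member passed the test for lead. Between the lead doses in roots, BGLU15, BGLU25 and BGLU46 were each over 2-fold higher at 50 than at 25 ppm, as were 10.4% of all probe sets, and BGLU46 was under 2-fold with another normalization or with an offset.

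**Figure D1:**
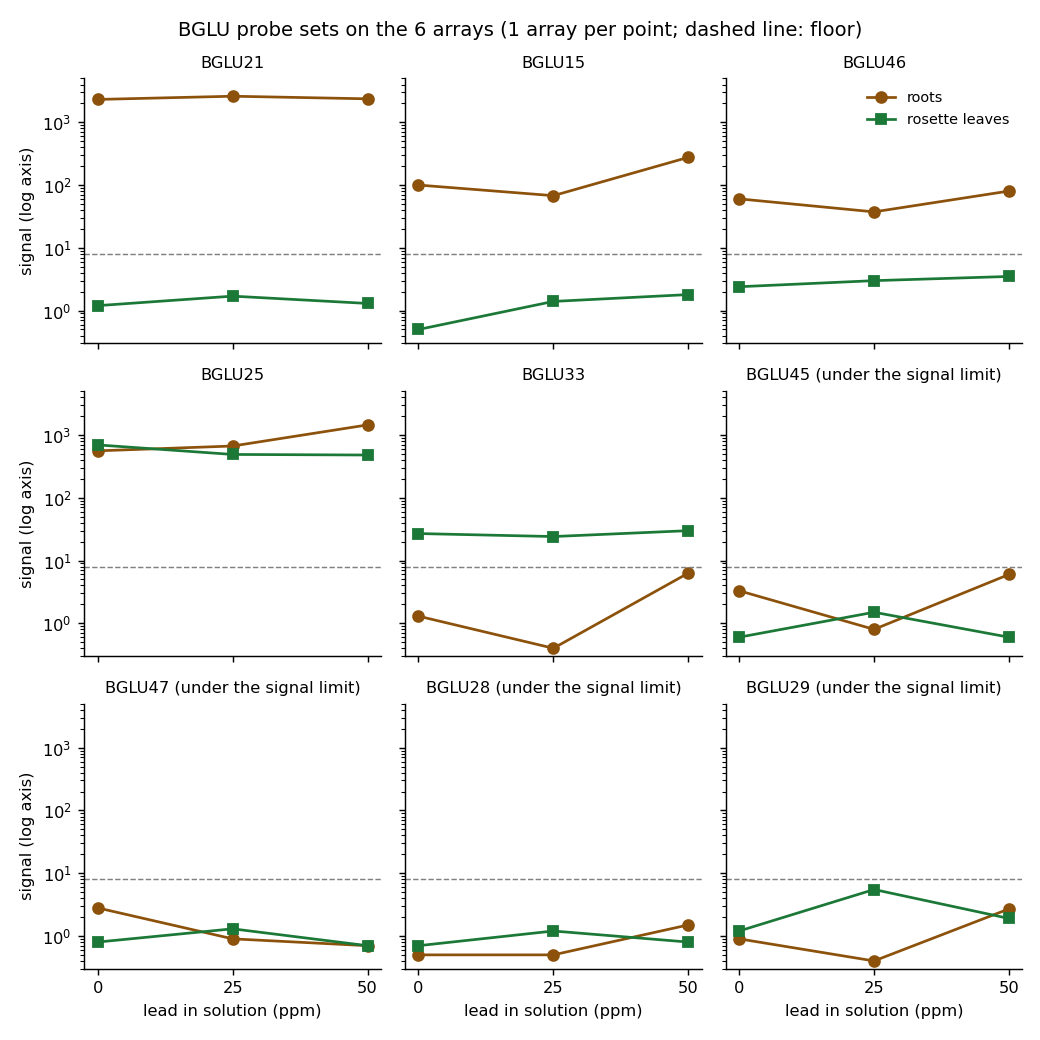
Signal (log axis) of the 9 BGLU probe sets against lead in the nutrient solution (ppm), in roots (brown circles) and rosette leaves (green squares), with 1 array per point and the floor of 8 as a dashed line. BGLU21, BGLU15 and BGLU46 lie above the floor in roots alone, BGLU33 in leaves alone and BGLU25 in both, and the 4 probe sets under the signal limit stay under the floor on all 6 arrays, where points have no order.

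BGLU21 (AT1G66270) encodes a root beta-glucosidase of ER bodies that acts on scopolin, the glucoside of the coumarin scopoletin. Its root signal was 2313.7 without lead, 2603.9 with 25 ppm and 2367 with 50 ppm, and 1.2, 1.7 and 1.3 in leaves in that order. All 3 root arrays were high, all 3 leaf arrays lay under the floor, and the organs did not overlap. The gene was at least 303-fold higher in roots (log2 difference 8.24, standard error 0.21, adjusted p = 1.23e-05 in limma). As the leaf values are tied at the floor, they add no spread to this error, and the bound moves with the floor: a floor at the 50th percentile gave a log2 difference of 6.58 and one at the 10th gave 10.78. In RNA of whole organs, fewer cells of a type and less RNA per cell cannot be told apart.

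BGLU21 was also steady across doses. Its highest and lowest root signals were 1.13-fold apart, where the median probe set above the floor on all 3 root arrays (4844 in all) spanned 1.53-fold, and 6.15% of them spanned less. These probe sets include many of far lower signal, and BGLU21 was not compared with genes of like level. Its log2 change with lead in roots was 0.10 with a standard error of 0.29 (adjusted p = 1 in limma). BGLU21 lies directly beside BGLU22 in the order of protein-coding genes, its close relative in the same ER body group. BGLU22 had no named probe set, and whether the BGLU21 probes also read BGLU22 was not tested.

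BGLU15 (AT2G44450) encodes an enzyme that removes glucose from flavonol glycosides. In roots it measured 100.1 without lead, 67.8 with 25 ppm and 276.6 with 50 ppm, and 0.5, 1.4 and 1.8 in leaves. The root arrays were all above the leaf arrays, and the 50 ppm root array was the highest of them. BGLU15 was at least 15.4-fold higher in roots (log2 difference 3.95, standard error 0.43, adjusted p = 0.000863 in limma). With those floors its log2 difference was 2.28 and 6.41. The lower bound on the root to leaf ratio was 12.5-fold without lead, 8.48-fold at 25 ppm and 34.5-fold at 50 ppm.

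BGLU46 (AT1G61820), which acts on glucosides of monolignols, the building blocks of lignin, measured 60.3 in roots without lead, 37.4 with 25 ppm and 80.3 with 50 ppm. In leaves it measured 2.4, 3 and 3.5, all under the floor. The organs did not overlap, and the gene was at least 7.07-fold higher in roots (log2 difference 2.82, standard error 0.32, adjusted p = 0.00108 in limma). The log2 difference was 1.16 and 4.27 with the higher and the lower floor.

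BGLU33 (AT2G32860) encodes a vacuolar enzyme that releases abscisic acid from its glucose ester. It ran the other way. Leaves measured 26.9 without lead, 24.1 at 25 ppm and 29.9 at 50 ppm, and roots measured 1.3, 0.4 and 6.3. All 3 leaf arrays stood above the floor and all 3 root arrays under it, so the organs did not overlap. BGLU33 was at least 3.36-fold higher in leaves (log2 difference -1.75 for roots minus leaves, standard error 0.31, adjusted p = 0.00551 in limma). Its leaf signals lie near the limit of 25, and with the floor at the 50th percentile of all signals the difference was -0.11 (adjusted p = 0.375), and at the 10th it was -3.65.

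BGLU25 (AT3G03640) was the member with signal in both organs. Its root signal was 559.1 without lead, 667.3 with 25 ppm and 1448 with 50 ppm, and 694.9, 489.7 and 479.6 in leaves. The organs overlapped: the control leaf array lay above the control and 25 ppm root arrays, while at 25 ppm roots were 1.36-fold above leaves and at 50 ppm 3.03-fold. Without the control leaf array the organs of BGLU25 no longer overlapped. Over the doses the log2 difference was 0.58 with a standard error of 0.37 (adjusted p = 0.239 in limma), beside a median of 0.30 over all tested probe sets. By the suffix of its name the BGLU25 probe set may match transcripts of more than 1 gene, which was not tested.

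The organs did not overlap, with roots higher, at 39.8% of probe sets and, with leaves higher, at 24.6%, against 3 and 1 of the 5 members. Members that reach the signal limit in 1 organ alone had to differ between organs, so these counts and those of the test describe the members and support nothing about the family.

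**Figure D2:**
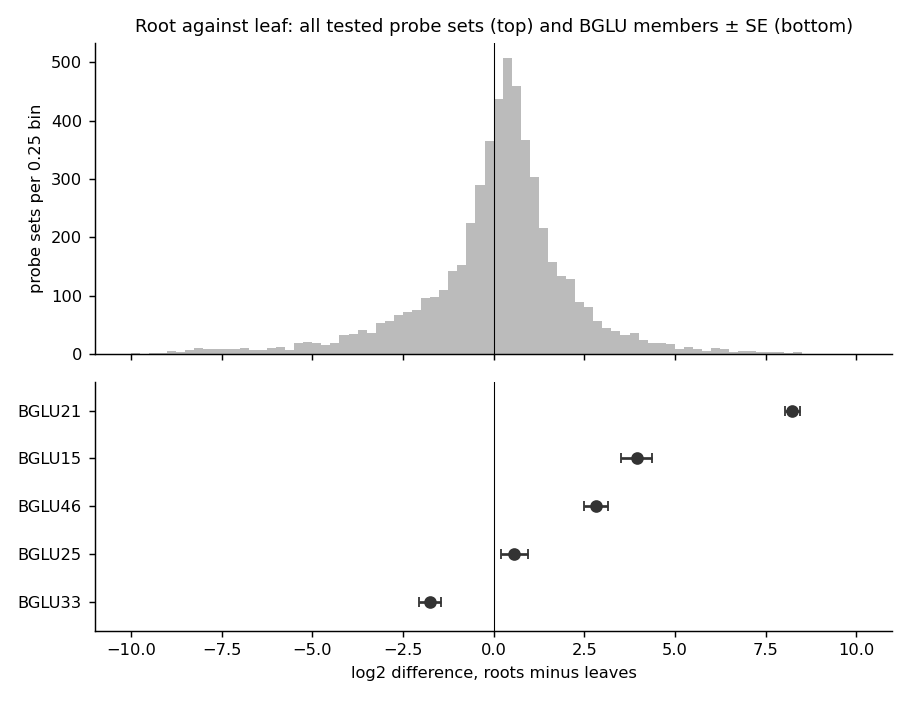
Log2 difference of roots minus leaves over the 3 doses, as a histogram of the 5395 tested probe sets (top, probe sets per bin) and for the 5 BGLU members with the standard error of the fit (bottom). BGLU21 at 8.24 sits at the far root end, BGLU15 at 3.95 and BGLU46 at 2.82 on the root side, BGLU25 at 0.58 near the bulk and BGLU33 at -1.75 on the leaf side; differences for all members but BGLU25 are lower bounds.

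With lead in roots, BGLU25 was 1.19-fold above control at 25 ppm and 2.59-fold at 50 ppm. BGLU15 was 1.48-fold lower at 25 ppm and 2.76-fold higher at 50 ppm. BGLU46 was 1.61-fold lower at 25 ppm and 1.33-fold higher at 50 ppm, so that BGLU15 and BGLU46 lay on opposite sides of the control at the lower and the higher dose. BGLU33 was not above the floor on any root array, and its change there was not measured.

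None of the 5 members was at least 2-fold from control in the same direction at both doses in roots, where 2.89% of all probe sets were higher and 1.82% lower by this rule. In limma, with both doses as 1 lead group, 0 of the 5 members and 0% of all probe sets passed in roots, and 0 members had an unadjusted p under 0.05, against 6.15% of all probe sets. BGLU25 had a mean log2 change of 0.81 (standard error 0.52, adjusted p = 0.926), BGLU15 of 0.45 (standard error 0.86, adjusted p = 1) and BGLU46 of -0.14 (standard error 0.55, adjusted p = 1). This fit takes its error from the gap between the lead arrays, pooled over both organs, which includes any real effect of dose.

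From 25 to 50 ppm in roots, BGLU15 was 4.07-fold higher, BGLU25 2.17-fold and BGLU46 2.14-fold. By the 2-fold rule 3 of the 5 members were higher and 0 lower, against 10.4% and 3.73% of all probe sets. BGLU15 was among the 2.65% of probe sets with at least as large a rise, BGLU25 among 8.66% and BGLU46 among 8.82%. These values rest on the single 50 ppm root array, whose background was 192.65, and the part of that background in the result was not tested. BGLU46 was under 2-fold with quantile normalization (log2 difference 0.95) and when an offset replaced the floor (0.85). BGLU21, on the same array, was 0.907 times its 25 ppm signal.

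In leaves BGLU25 and BGLU33 could be followed. BGLU25 was 1.41-fold lower than control at 25 ppm and 1.45-fold lower at 50 ppm, with a mean log2 change of -0.52 (standard error 0.52, adjusted p = 1 in limma). The fit pools its error over both organs, so this standard error is the one BGLU25 had in roots. From 25 to 50 ppm its log2 signal moved by -0.04 in leaves and by 1.12 in roots. BGLU33 was 1.11-fold lower at 25 ppm and 1.11-fold higher at 50 ppm, and its leaf signals spanned 1.23-fold, less than the 1.42-fold of the median probe set above the floor on all 3 leaf arrays. BGLU15, BGLU21 and BGLU46 lay under the floor on every leaf array, so their response in leaves was not measured.

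By the 2-fold rule at both doses 0 members changed in leaves, where 0.982% of probe sets were higher and 1.04% lower, and in limma 0 members and 0% of probe sets passed, with 0 members at an unadjusted p under 0.05 against 2.48% of probe sets; 2 of the 5 members had a leaf change that could be measured. From 25 to 50 ppm in leaves 0 members were 2-fold apart, against 4% of probe sets higher and 3.91% lower.

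BGLU25 was above control at both doses in roots and below it at both doses in leaves. The test of that difference gave a log2 value of 1.33 with a standard error of 0.73 and did not pass (adjusted p = 0.998 in limma). For this difference between organs 0% of all probe sets passed, and likewise 0% for a response common to both organs. Among the members, 0 passed either test and 0 had an unadjusted p under 0.05, against 3.74% of probe sets in the test between organs and 4.52% in the test of the common response. BGLU25 alone was above the floor in both organs. For the other members 1 organ was tied at the floor, so neither test could measure a response in both organs.

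**Figure D3:**
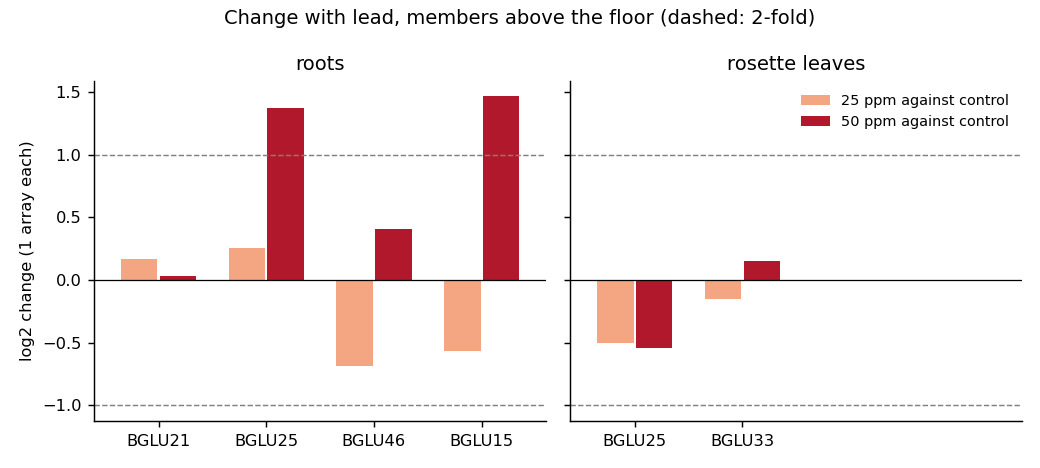
Log2 change against the control array of the same organ at 25 ppm (light bars) and 50 ppm (dark bars), for members above the floor in roots (left) and rosette leaves (right), with 1 array per value and dashed lines at 2-fold. BGLU25 and BGLU15 pass 2-fold in roots at 50 ppm alone, BGLU15 and BGLU46 lie below 0 at 25 ppm, and BGLU21 and both leaf members stay within 2-fold; the bars of an organ share its control array.

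The BGLU probe sets under the signal limit were under the floor on all 6 arrays. Their highest signals were 6 for BGLU45, 5.5 for BGLU29, 2.8 for BGLU47 and 1.5 for BGLU28. BGLU33, with a highest signal of 29.9, was the member nearest to the limit from above. A signal under the floor on this array sets no zero for the transcript.

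Tandem neighbours on the array fell on different sides of the signal limit. That limit is the rule that chose the members, so the split describes them and supports nothing about tandem copies. Whether it comes from transcript levels or from the probe sets was not tested. BGLU15 opens a run of 5 adjacent BGLU genes, followed by BGLU28, BGLU29, BGLU17 and PEN2. BGLU15 was above the floor on 3 root arrays. BGLU28, an enzyme linked to breakdown of glucosinolates under sulfur deficiency, lay between 0.5 and 1.5 on all 6 arrays and BGLU29 between 0.4 and 5.5. BGLU17 and PEN2 had no named probe set. BGLU45 and BGLU46 also lie side by side and both act on monolignol glucosides. In roots BGLU46 was above the floor, while BGLU45 stayed between 0.6 and 6 on all 6 arrays.

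Genes that work with these enzymes were described by lists chosen with earlier results known. Of 15 ER body and partner genes, 5 were named on the array and 4 of these were tested. All 4 passed as higher in roots in limma, as 31% of all probe sets did. NAI1, JAL31 and JAL34 reached the signal of 25.3 needed for testing in roots alone and so had to differ. The count therefore describes these genes and supports nothing about ER bodies. The median log2 difference of the 4 genes was 4.51, against 0.30 over all tested probe sets. NAI1 and JAL31 were at the floor on every leaf array and JAL34 on 2 of them. NAI1, the transcription factor needed for ER bodies, measured 40.5, 41 and 67.4 in roots in dose order and no more than 4.7 in leaves, at least 6.02-fold higher in roots (adjusted p = 0.00118). The lectin JAL34, a partner of the ER body glucosidase PYK10, measured 1010.7, 805.1 and 873.3 in roots and 1, 1 and 13.7 in leaves.

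The lectin JAL31 measured 319.3, 332.9 and 451.5 in roots and no more than 7.3 in leaves. GLL23, a lipase-like partner of PYK10, had signal in both organs, with 466.8, 404.5 and 707.5 in roots and 67.1, 14.8 and 89.7 in leaves. The root and leaf arrays of these 4 genes did not overlap, with roots higher, as at 39.8% of all tested probe sets. JAL23 lay between 0.1 and 0.6 on the 6 arrays and was not tested. With lead, 0 of the 4 passed in limma in either organ, where 0% of all probe sets did, and 0 were 2-fold from control at both doses. By that rule 2.89% of all probe sets were higher and 1.82% lower in roots, and 0.982% and 1.04% in leaves. The leaf change of NAI1 and JAL31, at the floor on every leaf array, was not measured.

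**Figure D4:**
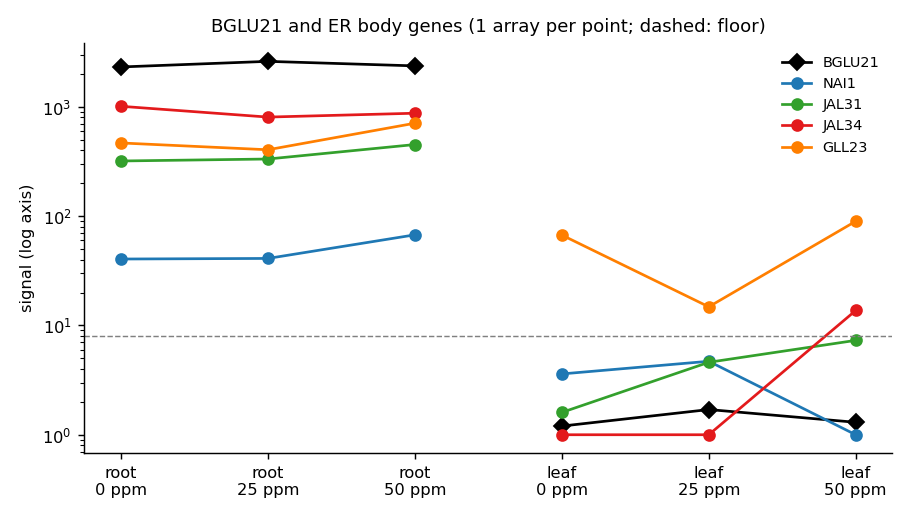
Signal (log axis) of BGLU21 (black diamonds) and the 4 tested ER body genes on the 6 arrays, 1 array per point, with the floor of 8 as a dashed line. All 5 lie above the floor on the 3 root arrays; in leaves GLL23 is above it on 3 arrays, JAL34 on the 50 ppm array alone, and the others on none.

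The genes that add, form or break down the glucosides were sparsely covered. Of 16 genes of glucosinolate breakdown 0 had a named probe set. Of 26 genes of glucosinolate synthesis 2 did: the glucosyltransferase UGT74B1 was higher in roots (131.2, 165 and 223.6 against 86.9, 109 and 118.6 in leaves, adjusted p = 0.0373 in limma), and UGT74C1 (20.5, 26.4 and 37.9 against 15.4, 18.1 and 16) did not pass (adjusted p = 0.0885). Their log2 differences were 0.70 and 0.73, beside a median of 0.30 over all tested probe sets, of which 31% passed as higher in roots. With lead 0 of these 2 passed in limma in either organ, where 0% of all probe sets did.

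Of 16 genes of coumarin, monolignol and abscisic acid glucosides 2 had a named probe set. Both encode enzymes that add glucose to monolignols or related phenylpropanoids, while BGLU46 removes it. UGT72E3 measured 63.6, 94.1 and 150.3 in roots and no more than 1.9 in leaves, at least 12.1-fold higher in roots (adjusted p = 0.000413 in limma). It reached the signal needed for testing in roots alone and so had to differ. Of all tested probe sets 31% passed as higher in roots. UGT72E1 measured 401, 57.1 and 127.1 in roots and 238.8, 389.1 and 379.6 in leaves. Its log2 difference of roots minus leaves was -1.20 and did not pass (adjusted p = 0.167 in limma). By the rule of size it was over 2-fold lower than control at both doses in roots, as were 1.82% of all probe sets. Both changes rest on the single control root array. With lead 0 of these 2 passed in limma, where 0% of all probe sets did.

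The genes most like each member were found among 2300 tested probe sets of other named genes, by the root mean square difference of log2 signals, each centred on its own mean, over the 6 arrays. For BGLU21 they were AT3G32980 (0.11) and AT5G64100 (0.18), both class III peroxidase genes, and then AT4G33720 (0.34). The median candidate stood at 3.96. AT3G32980 measured 2611.3, 2974.3 and 2145.9 in roots and no more than 3.5 in leaves. For BGLU15 they were WRKY29, a regulator of immune responses (0.15), AT4G20860 (0.29) and AT2G47550 (0.32), with a median of 1.93.

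WRKY29 shared with BGLU15 the low value at 25 ppm and the high value at 50 ppm, with 99.7, 60.8 and 208.6 in roots and no more than 1.9 in leaves. For BGLU25 the nearest was AT2G41410 (0.14, median 0.71), with 335.9, 487.3 and 897.2 in roots and 511.5, 282.9 and 336.2 in leaves. BGLU33 was nearest to AT4G38020 (0.13, median 1.12) and BGLU46 to AT1G26930 (0.18, median 1.33). For all members but BGLU25 these distances rest on values tied at the floor in 1 organ, and 6 single arrays do not show that genes respond together.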

How the data were processed

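Per the labels, biotin-labelled cRNA was read on an Affymetrix array of 8297 probe sets. The authors deposited linear signals, apparently scaled to trimmed means near 100, by software not stated in the labels or files. The table has 6 value columns, all used. After removal of 50 control probe sets, the remaining 8247 were scaled to a common 2% trimmed mean and floored at the 30th percentile (8). The 5395 probe sets reaching the median signal (25.3) on at least 1 array were tested. Signals are printed as deposited, and scaling moved them by under 1%.

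Probe sets were named from the platform annotation through RefSeq TAIR10.1 gene identifiers: 3784 named 1 gene and 70 several. Sequences are not used here. Models were fitted in R 4.3.3 with limma 3.58.1 (eBayes, trended, two-sided, with Benjamini-Hochberg adjustment over all tested probe sets and a threshold of 0.05): organ with dose as a term, and organ by lead with 25 and 50 ppm together. Each fit has 2 residual degrees of freedom, and eBayes draws the error of a probe set towards the spread of all tested probe sets. A p-value here therefore reflects only spread between these single arrays, of that probe set and of all others, which may be technical. A 2-fold rule served where 1 array stood against 1. The code was tested on simulated data.

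Members, gene lists, tests and alternatives were chosen with earlier results of these data known. Genes named are all BGLU probe sets, list members with a named probe set and the nearest patterns of each member (up to 3). The alternatives changed the scaling, the floor (also an offset of 16), the filter and the fit, dropped each array in turn, and used 1.5-fold and 3-fold rules; the 2-fold rule at 1 dose alone was added after the data were seen. The number of arrays limits the precision.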

Additional observations from a re-analysis of the deposited data

Results flagged for a closer look

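BGLU25 was flagged because both lead arrays moved one way in roots and the other way in leaves. It was 1.19-fold and 2.59-fold higher than control in roots at 25 and 50 ppm, and 1.41-fold and 1.45-fold lower in leaves. The difference of the log2 changes, roots minus leaves, was 1.33, with a standard error of 0.73, and did not pass in limma (adjusted p = 0.998, and between 0.176 and 1 over 13 alternatives, all with the same sign). Without the 50 ppm root array the difference was 0.77. BGLU25 was picked for these directions, so the shared sign adds no support. Both changes in an organ share its control array. The share of all probe sets that move oppositely in this way was not computed.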

How the results depend on the processing

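Among the 5 members, the 4 organ calls held under every alternative that tested them, except that BGLU33 did not pass with the floor at the 50th percentile (-0.11), which lies near its leaf signals. When a mean signal of 100 or more was required, BGLU15, BGLU33 and BGLU46 were not tested, which left 1 member called between organs, 1 whose organs did not overlap and 1 that was 2-fold apart between doses. By a 3-fold rule 1 member was apart between doses, and 3 were by the 2-fold rule. Without the 25 ppm root array, 2 members, BGLU15 and BGLU25, met the 2-fold rule in roots, with 878 of 5395 probe sets, and without the 50 ppm root array 0 members and 549 probe sets did, against 254 with all arrays. In limma 0 members passed for lead under any alternative. Over all probe sets the limma count in roots rose from 0 to 171 without the 25 ppm root array, 63 without the 50 ppm root array, 36 without a filter and 1 with the offset. For the organ difference it rose to 121, 28 and 58 under the first 3 of these, for the common response to 117, 27 and 56, and in leaves to 22 without a filter. The direction of small lead changes turned: BGLU15 in roots was -0.56 without the 50 ppm array, BGLU46 in roots was 0.41 without the 25 ppm array or with dose as a number, and BGLU25 over both organs was -0.13 without the 50 ppm root array. Without single arrays BGLU15 in roots ran from -0.56 to 1.46, BGLU46 from -0.69 to 0.41, BGLU33 in leaves from -0.15 to 0.15 and the BGLU25 common change from -0.13 to 0.43. BGLU33 in leaves had 0.032 when the floor was the 50th percentile, 0.00092 with an offset and 0.15 with dose as a number. Without 1 lead array of an organ, the lead change there is that of the remaining dose alone. So -0.56 is the BGLU15 root change at 25 ppm, and 0.41 the BGLU46 root change at 50 ppm. The cause of the other turns was not tested. The dose term pairs the organs by dose, and without it 4 members passed between organs as well; replicate numbers pair nothing, as each group holds 1 array. Without the control leaf array 5 members had organs that did not overlap. Signals under the floor limit what can be said of BGLU28, BGLU29, BGLU45 and BGLU47.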
